A study of Homo sapiens with 4 samples.

Results

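The pregnancy-specific glycoprotein (PSG) genes of human chromosome 19 were followed in 4 RNA-seq libraries of the glioblastoma cell line U87MG. The members were the 10 rows of the deposited count tables whose gene symbol is PSG1 to PSG9 or PSG11, out of 29387 genes listed in all 4 libraries. The family was chosen by measured values: a member stood out in read counts between invasive and control populations. Every value of that contrast is therefore a description of these libraries.

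PSGs are secreted glycoproteins of the immunoglobulin superfamily and belong to the carcinoembryonic antigen family, together with the CEACAM cell-surface proteins. Their main known source is the syncytiotrophoblast of the placenta, from which they reach the maternal blood in large amounts. In placental biology they are known as modulators of immune cells and of vessel growth. PSG1 binds integrins and heparan sulfate proteoglycans, and PSG1 and PSG9 activate latent TGF-beta.

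The study derived cell populations from parental U87MG cells by how they behaved on organotypic brain slices. They were the highly invasive populations 1 and 2 and the poorly invasive control populations 1 and 2. Parental cells spent 1 week on the slices in neural stem cell medium containing FGF and EGF, after which the populations were separated and expanded for 3 to 5 days. Invasive 1 was set against control 1 (pair 1) and invasive 2 against control 2 (pair 2), as the design text lays down. The labels name no genetic change and no drug in either group. Each population was represented by 1 library of polyadenylated RNA, so each group had 2 libraries, and the spread includes differences between cultures and in handling. The invasive populations carry the word clone in their titles, and the series' design text calls them independently derived. Which species the slices came from is not given in the sources used.

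Total counts were 15466900 in invasive 1 and 17817756 in control 1, and 13829871 in invasive 2 and 15444104 in control 2. Levels are given as counts per 1000000 counts (CPM). A count of 0 allows up to 3 counts, or 0.171 to 0.217 CPM depending on the library, counting error alone considered. Of 14231 genes that passed the low-count filter, 34 were higher and 5 lower in the invasive populations by edgeR's quasi-likelihood test, blocked by pair, at a Benjamini-Hochberg adjusted p under 0.05. The line's mesenchymal marker VIM had 113467 to 145137 counts per library, whereas the glial markers GFAP and SOX2 had at most 4 counts and 1 count in any library. The other markers listed for the line were detected, with 24032 to 38230 counts for CD44, 775 to 2665 for CHI3L1 and 217 to 739 for NES. Markers of other brain cells were mostly low. Their summed level was 0.217 to 0.32 CPM in invasive and 0.519 to 1.14 CPM in control libraries for 3 oligodendrocyte genes, and 0.0723 to 0.128 CPM and 0 to 0.171 CPM for 3 microglial and leukocyte genes listed in all 4 libraries. For 3 endothelial genes it was 0.961 to 1.37 CPM in invasive and 0.908 to 1.19 CPM in control libraries, and for 3 astrocyte genes 2.1 to 2.75 CPM and 0.74 to 1.95 CPM. The part of the astrocyte genes in the results below was not tested. AQP4, MOG, P2RY12 and CLDN5, markers of astrocytes, oligodendrocytes, microglia and brain endothelium, had 0 counts in every library. Other genes of the same lists were detected. SLC1A2 (astrocyte) had 12 to 41 counts, MBP (oligodendrocyte) 3 to 19 and PECAM1 (endothelium) 7 to 17. The 4 neuronal genes summed to 31.8 to 44.4 CPM in invasive and 40.9 to 45.5 CPM in control libraries. Most of this sum came from SNAP25, with 364 to 622 counts per library, and SYT1 had 74 to 134. RBFOX3 and STMN2 had at most 2 counts and 1 count. In bulk RNA, fewer cells of a type and less RNA per cell cannot be told apart.

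The members are close copies of each other, which limits how their reads can be assigned. They lie within 548 kb, at chr19:42721638-43269530 of GRCh38, all on the minus strand. In the longest GENCODE release 29 coding sequences, the 45 pairs of members were 88.3% to 94.8% identical. PSG4 was between 90.7% (PSG11) and 93.7% (PSG3) identical to the others, and shared its longest identical stretch, 143 bases, with PSG5. The extent of the likeness is shown by 60 coding bases of the 5 members with enough counts to be tested, chosen because PSG4 differs there from all 9 other members at 3 positions. The lines run 5′ to 3′ and come from the GENCODE transcripts on chromosome 19. Capitals mark, in PSG4, the 3 bases found in no other member, and in the other members each base that differs from PSG4.
PSG4: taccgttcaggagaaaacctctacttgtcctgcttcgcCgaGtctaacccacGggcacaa
PSG5: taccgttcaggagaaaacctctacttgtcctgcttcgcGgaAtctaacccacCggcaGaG
PSG1: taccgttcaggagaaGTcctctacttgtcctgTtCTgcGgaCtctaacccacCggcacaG
PSG2: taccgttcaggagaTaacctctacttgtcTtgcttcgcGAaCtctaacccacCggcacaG
PSG9: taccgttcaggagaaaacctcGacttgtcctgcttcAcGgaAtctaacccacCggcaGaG

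The stretch is coding bases 1030 to 1089 of PSG4, and PSG5 differs from it at 5 bases. PSG1 and PSG8 are identical in this window, and PSG8 had no count in any library. Over whole transcripts, 83.0% of the 50-base words of PSG4 and 80.9% of those of PSG5 occurred in no other member. The lowest such shares were 66.3% for PSG8 and 69.2% for PSG3. The read length, and how the authors' counting treated a read that fits several members, are not given in the sources used. In the files' annotation the span of PSG6 (42728080 to 43205603) covered all or part of 8 other members and that of PSG7 (42906822 to 43082671) all or part of 3. In GENCODE release 29, PSG6 spans only 42902079 to 42919563. Counts of single members are uncertain for these reasons, and the sum over the family is given beside them. The sum does not depend on how reads were split within the family, but it does depend on any reads left uncounted because they fit several members.

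Promoter sequences were at hand for 3 of the 10 members, PSG3, PSG4 and PSG5. They are shown because PSG promoters are known to lack a TATA box and because KLF6 was identified through its binding to a core element of the PSG5 promoter. The lines give the 120 bases before the transcription start, 5′ to 3′ on the minus strand, from RefSeq on GRCh38.p14, at chr19:43205639-43205758 for PSG4, chr19:43186537-43186656 for PSG5 and chr19:42740482-42740601 for PSG3. Capitals mark CCCGCCC, known as a GC box, in PSG4 and PSG3. In PSG5 they mark CCCACCC, a box of the kind that KLF factors bind.
PSG4: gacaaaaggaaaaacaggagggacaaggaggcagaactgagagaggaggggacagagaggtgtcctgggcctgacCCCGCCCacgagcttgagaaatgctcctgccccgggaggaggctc
PSG5: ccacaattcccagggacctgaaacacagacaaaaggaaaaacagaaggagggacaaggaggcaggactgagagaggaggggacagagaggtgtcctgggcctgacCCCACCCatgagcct
PSG3: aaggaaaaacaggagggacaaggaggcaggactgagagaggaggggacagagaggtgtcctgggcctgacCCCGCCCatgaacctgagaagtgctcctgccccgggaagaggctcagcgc

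Aligned over 300 bases around the start, the 3 promoters were 94.2% to 96.5% identical. The GC box began at base -45 of PSG4 and -50 of PSG3, and the other box at base -15 of PSG5. The same bases precede the box in all 3 lines, so the positions differ with the annotated starts. The PSG4 window (43205589 to 43205888) lies inside that gene's GENCODE release 29 span, which ends at 43207299. Searched on both strands, CCCGCCC occurred in 33.1% and CCCACCC in 19.6% of 35116 RefSeq promoter windows of the same length. TATAAA, found in 11.5% of them, occurred in none of the 3. These matches describe the letters and not binding.

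PSG4 carried most of the family's RNA in every library. It had 295 counts in invasive 1 and 129 in control 1, and 355 in invasive 2 and 176 in control 2. As levels these were 18.9 CPM in invasive 1 and 7.34 CPM in control 1, and 25.7 CPM in invasive 2 and 11.4 CPM in control 2. Both invasive libraries lay above both controls. The mean was 22.3 ± 4.78 CPM in invasive and 9.38 ± 2.88 CPM in control populations (SD, n = 2 each). The invasive over control ratio was 2.57 in pair 1 (95% exact counting interval 2.09 to 3.19) and 2.25 in pair 2 (1.87 to 2.71). PSG4 was the only member past the threshold, with a log2 fold change of 1.26 ± 0.16 (SE) and an adjusted p of 0.0499 by edgeR's quasi-likelihood test. The threshold was 0.05, and 0.239% of all tested genes were called higher. Since this contrast chose the family, nothing is read from the call. The call was lost without the pair block (adjusted p 0.236). It was also lost without any 1 of the 4 libraries, in fits that dropped the pair block too (log2 fold change 0.96 to 1.59, adjusted p 0.158 to 0.544), and with library sizes taken over all listed genes (adjusted p 0.0517). Averaged over the 4 libraries, PSG4 stood at the 40.2 percentile of CPM among tested genes.

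**Figure D1:**
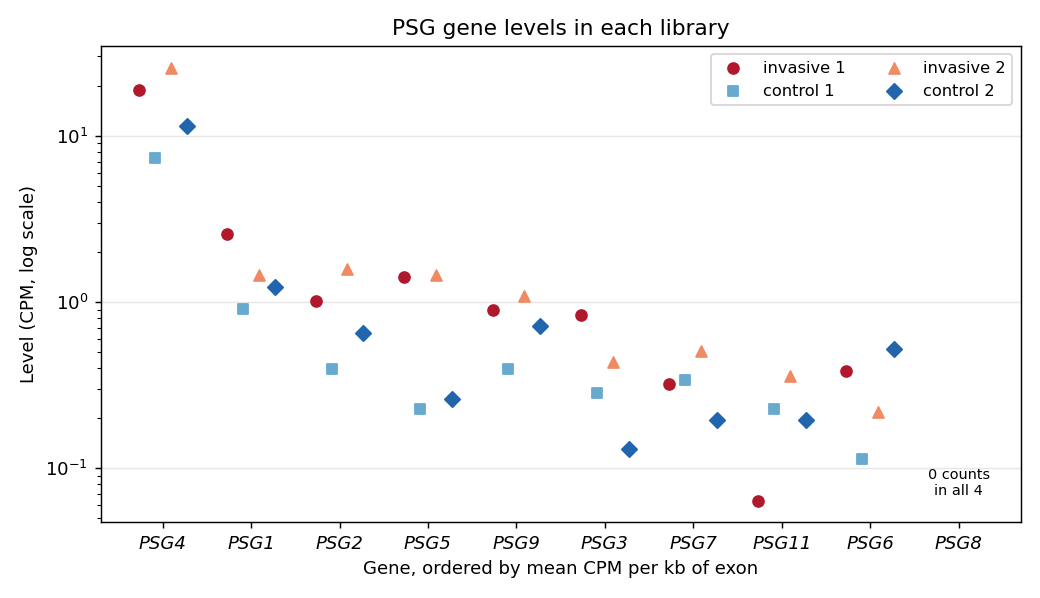
Level of each PSG gene in CPM (log scale) in invasive 1, control 1, invasive 2 and control 2, with genes ordered by mean CPM per kilobase of exon; each point is 1 library. PSG4 lies at 7.34 to 25.7 CPM, every other member at 2.56 CPM or lower, and PSG8 has 0 counts.

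Per kilobase of exon, PSG4 averaged 5.15 CPM per kb over the 4 libraries (range 2.39 to 8.34) and was above every other member in every library. The next levels were 0.492 CPM per kb for PSG1 (0.292 to 0.82) and 0.472 for PSG2 (0.205 to 0.82). PSG5, PSG9 and PSG3 followed, with means of 0.232, 0.225 and 0.214 CPM per kb. PSG7, PSG11 and PSG6 averaged 0.117, 0.11 and 0.0819 CPM per kb. From PSG1 to PSG6 the ranges of neighbours in this order overlapped. The exon lengths come from GENCODE release 29 and not from the authors' annotation.

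PSG5 had the widest gap between the groups in proportion. It had 22 counts in invasive 1 and 4 in control 1, and 20 in invasive 2 and 4 in control 2. The mean level was 1.43 ± 0.0259 CPM in invasive and 0.244 ± 0.0226 CPM in control populations (SD, n = 2 each), without overlap. The ratio was 6.19 in pair 1 (95% exact counting interval 2.1 to 24.7) and 5.57 in pair 2 (1.87 to 22.4). With 4 counts in each control, the intervals span more than 10-fold. The log2 fold change was 2.52 ± 0.49 and the adjusted p 0.0993 by edgeR's quasi-likelihood test, short of the threshold.

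PSG1, whose protein binds integrins and proteoglycans, had 40 counts in invasive 1 and 16 in control 1, and 20 in invasive 2 and 19 in control 2. The ratio was 2.81 in pair 1 (95% exact counting interval 1.54 to 5.38) and 1.17 in pair 2 (0.594 to 2.32), and the second interval includes 1. The difference between the pairs was not tested. PSG9, which like PSG1 activates latent TGF-beta, had 14 counts in invasive 1 and 7 in control 1, and 15 in invasive 2 and 11 in control 2. Its ratios of 2.25 (0.85 to 6.59) and 1.52 (0.652 to 3.66) both had intervals that include 1. The adjusted p was 0.323 for PSG1 and 0.376 for PSG9 by edgeR's quasi-likelihood test, with log2 fold changes of 0.89 ± 0.43 and 0.85 ± 0.46.

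PSG2 had 16 counts in invasive 1 and 7 in control 1, and 22 in invasive 2 and 10 in control 2. Both ratios were near that of PSG4, at 2.57 (1.0 to 7.39) in pair 1 and 2.45 (1.11 to 5.8) in pair 2. Its log2 fold change of 1.31 ± 0.43 had an adjusted p of 0.207 by edgeR's quasi-likelihood test. PSG3 had 13 counts in invasive 1 and 5 in control 1, and 6 in invasive 2 and 2 in control 2. It did not pass the low-count filter and was not tested.

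The remaining members gave too few counts to show a direction. PSG6 had 6 counts in invasive 1 and 2 in control 1, but 3 in invasive 2 and 8 in control 2. PSG7 had 5 counts in invasive 1 and 6 in control 1, and 7 in invasive 2 and 3 in control 2. PSG11 had 1 count in invasive 1 and 4 in control 1, against 5 in invasive 2 and 3 in control 2. For each of these 3 genes the sign differed between the pairs and both counting intervals of the ratio include 1. PSG8 had 0 counts in all 4 libraries, which allows a level of up to 0.192 and 0.217 CPM in the invasive and 0.171 and 0.195 CPM in the control libraries. The deposited tables of pair 1 also list the pseudogene PSG10P, with 1 count in invasive 1 and 1 in control 1.

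**Figure D2:**
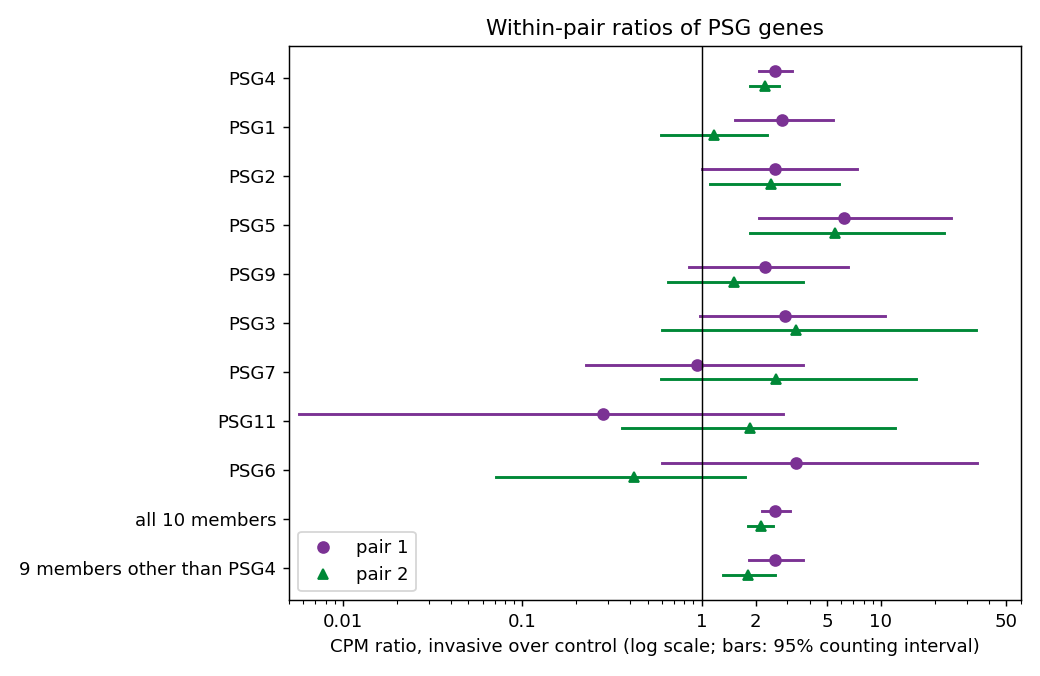
Ratio of CPM, invasive over control, within pair 1 and pair 2 for each PSG gene with counts, for the sum of the 10 members and for the sum without PSG4 (log scale; bars are 95% exact counting intervals, which cover counting error only). The intervals of PSG4, PSG5 and both sums lie above 1 in both pairs, those of PSG6, PSG7 and PSG11 include 1 in both.

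Summed over the 10 members, the family had 412 counts in invasive 1 and 180 in control 1, and 453 in invasive 2 and 236 in control 2. The summed level was 26.4 and 32.7 CPM in the invasive and 10.2 and 15.3 CPM in the control libraries (29.6 ± 4.49 and 12.8 ± 3.59 CPM, mean ± SD, n = 2 each), without overlap. The ratio was 2.58 in pair 1 (95% exact counting interval 2.16 to 3.09) and 2.14 in pair 2 (1.82 to 2.51). Leaving out PSG4, the other 9 members together had 117 counts in invasive 1 and 51 in control 1, and 98 in invasive 2 and 60 in control 2. Their ratios were 2.58 (1.84 to 3.66) and 1.82 (1.31 to 2.55). Without PSG4 and PSG5, the ratios of the other 8 were 2.28 (1.59 to 3.3) and 1.55 (1.09 to 2.23). Among these 8, the ratios of single members in pair 2 ran from 0.418 for PSG6 to 3.34 for PSG3, both on few counts. The sums belong to the contrast that chose the family, and nothing is read from them. Whether reads shared between members have a part in these ratios was not tested.

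Counted over the members, 6 of 10 (PSG1, PSG2, PSG3, PSG4, PSG5 and PSG9) had both invasive libraries above both controls in CPM, where 19.1% of 25577 genes with at least 1 count and 21.8% of tested genes did. The same 6 were higher in the invasive library within each pair, where 29.2% of those genes and 33.4% of tested genes were. PSG2, PSG3, PSG4 and PSG5 had a log2 difference of at least 1 in both pairs, a size reached by 1.16% of genes with at least 1 count. Of the tested members 3 reached it, where 1.15% of tested genes did. None of the 10 was lower in both pairs. Of the 5 members that passed the low-count filter, 3 (PSG2, PSG5 and PSG9) reached its level of 0.647 CPM in both invasive but not in both control libraries, so a count over the tested members favours the higher direction by construction. These counts follow from how the family was picked, and nothing is read from them.

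PSG4 made up 71.6% of the summed PSG counts in invasive 1 (95% Wilson interval 67.1 to 75.7) and 71.7% in control 1 (64.7 to 77.7). In pair 2 its share was 78.4% in invasive 2 (74.3 to 81.9) and 74.6% in control 2 (68.7 to 79.7). The intervals overlap within both pairs. PSG5 made up 5.34% in invasive 1 (3.55 to 7.95) and 2.22% in control 1 (0.867 to 5.57), and 4.42% in invasive 2 (2.88 to 6.72) and 1.69% in control 2 (0.661 to 4.28). The PSG5 share was thus above that of the control in the invasive library of both pairs, with overlapping intervals. The share of PSG1 was 9.71% in invasive 1 and 8.89% in control 1, and 4.42% in invasive 2 and 8.05% in control 2. Differences in these shares were not tested.

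**Figure D3:**
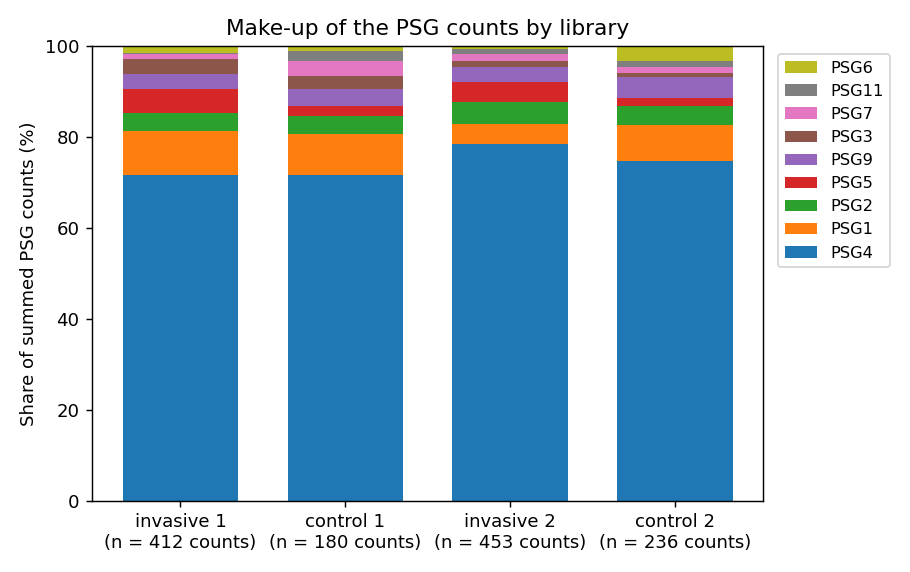
Share of the summed PSG counts (%) taken by each member in each library, stacked to 100%, with the number of summed counts under each bar. PSG4 takes 71.6% to 78.4% in the 4 libraries and no other member more than 9.71%.

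The difference between the pairs was not used to choose the family and was tested in the same fit. No member was called for pair 2 over pair 1 by edgeR's quasi-likelihood test, where 0.0984% of tested genes were, 1 member (PSG4) had an unadjusted p under 0.05 as did 14.8% of tested genes, and DESeq2 called 0. PSG4 was higher in pair 2 than in pair 1 in both groups, at 25.7 CPM in invasive 2 and 18.9 CPM in invasive 1, and 11.4 CPM in control 2 and 7.34 CPM in control 1. Its log2 fold change was 0.53 ± 0.15 with an adjusted p of 0.234. PSG2 and PSG9 had log2 fold changes of 0.65 ± 0.43 and 0.50 ± 0.46 for pair 2 over pair 1. The corresponding value was 0.07 ± 0.46 for PSG5 and -0.27 ± 0.43 for PSG1. A pair is a population, a culture and the libraries analysed together, which cannot be told apart.

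No tested gene near the cluster was called. Within 500 kb of the outermost members the tables list 41 other genes, of which 24 passed the filter. By edgeR's quasi-likelihood test 0 of them were called between invasive and control populations, 3 had an unadjusted p under 0.05, beside 18.2% of all tested genes, and DESeq2 called 0. Their log2 fold changes were between -0.39 and 0.90, with a median of 0.08 beside 0.01 over all tested genes. The lowest was PLAUR, the receptor of the urokinase plasminogen activator, at -0.39 ± 0.10 (adjusted p 0.139 by edgeR). The highest was the zinc-finger gene ZNF575 at 0.90 ± 0.37 (adjusted p 0.27 by edgeR). ZNF428, the third of those with a low unadjusted p, was at 0.47 ± 0.13 (adjusted p 0.153 by edgeR). None of the 24 had a log2 difference of at least 1 in both pairs. Of the 41, 5 lie inside the cluster between the members, and these had at most 7 counts in any library.

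**Figure D4:**
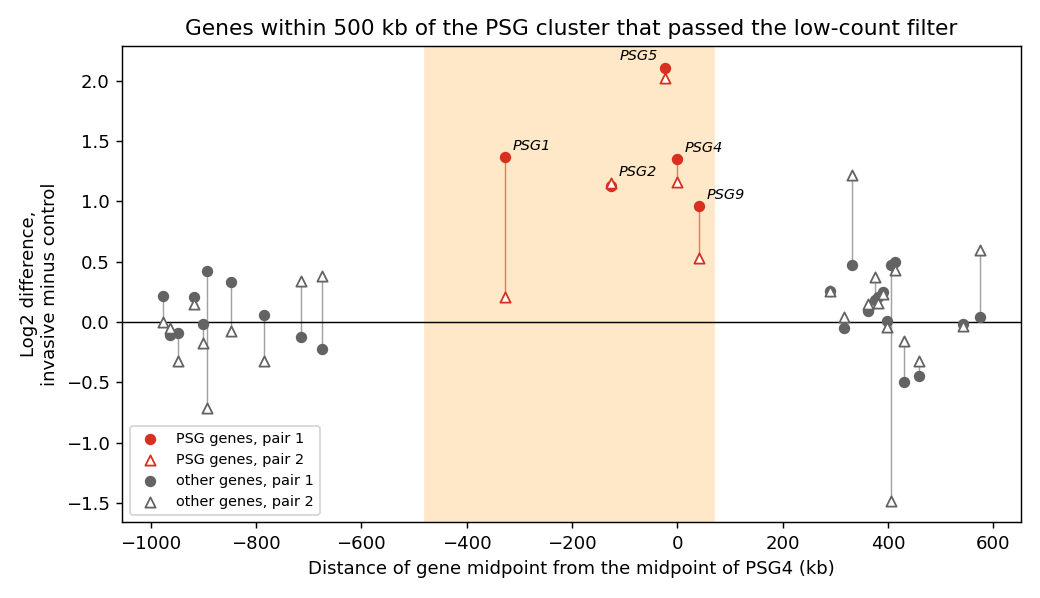
Log2 difference of CPM, invasive minus control, in pair 1 (filled circles) and pair 2 (open triangles) for the genes that passed the low-count filter within 500 kb of the PSG cluster (shaded), by distance of the gene's midpoint from that of PSG4 in kb. The 5 tested PSG genes lie above 0 in both pairs, and the 24 other genes lie on both sides of 0. Nothing is read from this, since the contrast chose the family. PSG2, PSG5 and PSG9 reached the filter's level in both invasive but not in both control libraries. Members that were not tested are not drawn, among them PSG6, PSG7 and PSG11, whose sign differed between the pairs.

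Few of the family's CEACAM relatives were measured. Of 12 CEACAM genes on the list, 5 were listed in all 4 libraries and 1 passed the filter. That gene, CEACAM19, had 31 counts in invasive 1 and 22 in control 1, and 18 in invasive 2 and 18 in control 2. Its log2 fold change was 0.43 ± 0.37 (adjusted p 0.573 by edgeR). CEACAM1, a homophilic adhesion receptor, had 6 counts in invasive 1 and 0 in control 1, and 0 in invasive 2 and 8 in control 2. CEACAM8 and CEACAM21 had 0 counts in all 4.

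Of 16 genes for binding partners and ligands of PSG proteins (integrin subunits, tetraspanins, syndecans, a glypican, galectin-1, TGF-beta ligands and a scavenger receptor), 14 were tested. edgeR's quasi-likelihood test called 0 of them, 4 had an unadjusted p under 0.05 (18.2% of all tested genes did), and DESeq2 called 0. The median log2 fold change was 0.05. In the invasive library of both pairs 6 were higher, as were 33.4% of all tested genes, and 3 were lower. SDC3, a syndecan that carries heparan sulfate, was the highest, with 159 counts in invasive 1 and 73 in control 1, and 111 in invasive 2 and 49 in control 2. Both invasive libraries lay above both controls, as in 21.8% of all tested genes. Its log2 fold change was 1.31 ± 0.22 (adjusted p 0.0843 by edgeR). TGFB3 and SDC1 had log2 fold changes of 0.88 ± 0.23 and 0.37 ± 0.10 (adjusted p 0.143 and 0.149 by edgeR). The lowest was CD9, a tetraspanin that in mice is a receptor for a PSG protein, at -0.42 ± 0.12 (adjusted p 0.177 by edgeR).

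All 8 listed regulators of PSG genes (KLF, SP, retinoid receptor and GABP factors) passed the filter. edgeR's quasi-likelihood test called 0, 2 had an unadjusted p under 0.05 (18.2% of all tested genes did), and DESeq2 called 0, with a median log2 fold change of -0.04. The highest was RXRA, a retinoid receptor, at 0.54 ± 0.11 (adjusted p 0.1 by edgeR). The lowest was GABPB1, a subunit of the GA-binding protein, at -0.32 ± 0.11 (adjusted p 0.227 by edgeR). KLF6, named above for the PSG5 promoter, was at -0.01 ± 0.11.

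The PSG genes were not accompanied by a called change in any trophoblast marker. Of 30 genes on the list, 20 were listed in all 4 libraries and 12 were tested. edgeR's quasi-likelihood test called 0, 5 had an unadjusted p under 0.05 (18.2% of all tested genes did), and DESeq2 called 0. The summed level of the list was 153 CPM in invasive 1 and 179 CPM in control 1, and 191 CPM in invasive 2 and 255 CPM in control 2, lower in the invasive library of each pair. The median log2 fold change of the 12 was 0.43. In the invasive library of both pairs 7 were higher, as were 33.4% of all tested genes, and 3 were lower. Most of the sum came from PAPPA, a secreted metalloproteinase, which was the lowest of the list at -0.61 ± 0.14 (adjusted p 0.13 by edgeR). The highest was its relative PAPPA2 at 1.03 ± 0.64 (adjusted p 0.519 by edgeR), with log2 differences of 0.10 in pair 1 and 1.98 in pair 2. The transcription factors ELF5, TFAP2C, TFAP2A and TEAD4, which act in trophoblast development, had the other unadjusted p under 0.05, with log2 fold changes of 0.97 ± 0.39, 0.95 ± 0.31, 0.58 ± 0.24 and -0.58 ± 0.14 (adjusted p 0.135 to 0.265 by edgeR). The part of these genes in the PSG values was not tested. GCM1, the factor that drives syncytiotrophoblast formation, had 0 counts in all 4 libraries, as did KISS1. CGA, the hormone subunit typical of syncytiotrophoblast, was listed for pair 2 alone, with 0 counts in both libraries. The other tested genes of the list had low counts in every library. CGB8, a beta subunit gene of the same hormone, had 32 to 51 counts. HSD17B1 had 12 to 28, CYP19A1 17 to 38, HLA-G 8 to 18, GATA2 25 to 33 and GATA3 19 to 40.

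The 5 protein-coding genes whose pattern over the 4 libraries was nearest to that of the summed family were CASZ1, LPCAT2, DFNB31, SULF2 and ARHGEF37, out of 12297 compared. Likeness was the Euclidean distance between log2 CPM values centred on each gene's mean over the 4 libraries, and it was 0.125 to 0.206 for these 5 and 0.104 for PSG4 itself. LPCAT2, an acyltransferase of phospholipid remodelling, had 142 counts in invasive 1 and 64 in control 1, and 150 in invasive 2 and 74 in control 2. SULF2, which removes sulfate groups from heparan sulfate outside the cell, had 12 counts in invasive 1 and 5 in control 1, and 15 in invasive 2 and 7 in control 2. CASZ1 encodes a zinc-finger transcription factor and DFNB31 the scaffold protein whirlin. The log2 fold changes of the 5 lay between 1.19 (DFNB31) and 1.46 (CASZ1), and edgeR's quasi-likelihood test called none of the 5 (adjusted p 0.0868 to 0.24).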

How the data were processed

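Per the file headers, the authors deposited for each library a table of raw read counts per Ensembl gene and a table of normalized values rounded to whole numbers, used here as a score whose method the sources used do not give. Per the submitters' processing notes, the tools were HTSeq, TopHat2 2.0.12, Bowtie, DESeq2 and bcl2fastq 1.8.4, and the build was GRCh38; no roles are stated. Per the labels' protocols the libraries were strand-specific, but the sources used do not give the counting mode or its strand setting. The score tables list 32100 genes in pair 1 and 10252 in pair 2, where PSG4 is the only member, and served 1 alternative.

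Counts of the 29387 genes in all 4 libraries were filtered by group with filterByExpr (at least 10 counts, total at least 15) and tested with edgeR 4.0.16 (quasi-likelihood F test, two-sided, TMM factors, robust prior, pair as block, Benjamini-Hochberg over 14231 genes, limma 3.58.1, R 4.3.3). The fit has 1 residual degree of freedom and a prior worth 5.45, with a biological coefficient of variation of 12.2%. DESeq2 1.42.0 was an alternative. The block follows the design text, and the deviations of same-numbered libraries correlated across genes (r = 0.283). No library was a duplicate: chi-square divided by its degrees of freedom came to 21.5 for the invasive and 34.5 for the control libraries. CPM used TMM-scaled library sizes, and log2 differences within a pair a prior count of 2. Ratios of single members carry 95% exact conditional counting intervals (SciPy 1.17.1), which cover counting error only. Coding sequences were aligned with MAFFT 7.526 and promoters with Biopython 1.88. The test was also run on simulated counts with known changes.

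The members and lists were chosen with earlier results of these data known. Named were all members, other PSG rows, tested genes within 500 kb, of each list the highest, the lowest and those with a low p, and the 5 nearest patterns. ZNF428, CEACAM1, CEACAM8, CEACAM21, TGFB3, SDC1, KLF6, GCM1, KISS1, CGA, ELF5, TFAP2C, TFAP2A, TEAD4 and the cell markers by name were named after their values were seen. The same holds for CGB8, HSD17B1, CYP19A1, HLA-G, GATA2 and GATA3.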

Additional observations from a re-analysis of the deposited data

Results flagged for a closer look

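In several genes the invasive library was higher than its control in one pair and lower in the other, and the difference between the pairs was not tested in any of them, since each pair has 1 library per group. The log2 difference, invasive minus control, was 1.08 in pair 1 and -0.91 in pair 2 for PSG6, which had 2 to 8 counts per library. It was -0.07 and 0.97 for PSG7 (3 to 7 counts), and -0.89 and 0.60 for PSG11 (1 to 5 counts). For CEACAM1, which had 6 counts in invasive 1 and 8 in control 2 and 0 in the other two libraries, the values were 2.00 and -2.34 and depend on the prior count of 2. GFAP, with at most 4 counts, gave 0.08 and -0.51. In the abundant genes KLF6 and VIM the opposite signs were small, at 0.13 and -0.15 for KLF6 and -0.18 and 0.16 for VIM.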

How the results depend on the processing

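The number of members called between invasive and control populations was 1 with DESeq2's size factors and with DESeq2 itself. With all 10 members summed to 1 row, no single member was tested. That row, mostly PSG4 counts, was called, and nothing is read from this since the contrast chose the family. The number of members called was 2 without the low-count filter, where PSG5 joined PSG4 (adjusted p 0.00114 by edgeR). It was 0 without the replicate block and with library sizes over all listed genes, the last chosen after seeing the data. Leaving out 1 library at a time gave 0 in each case, in fits that had the group term alone and so dropped the replicate block too. Over all genes, 34 were called higher, against 80 with DESeq2's size factors, 142 with DESeq2, 760 without the filter, 2 without the replicate block and 4 to 83 without 1 library (group term alone). The mean log2 difference of the summed family was 1.22. Without 1 library, the log2 ratio of the groups' mean CPM, which drops the pairing, lay between 0.95 and 1.53. The same ratio was 1.21 without the replicate block. In the other alternatives the mean log2 difference was between 1.09 (the 9 members other than PSG4, also chosen after seeing the data) and 1.24. For pair 2 over pair 1, 0 members were called in every alternative, and the log2 fold change of PSG4 was 0.53. Without 1 library the fits had the pair term alone, so that a pair reduced to 1 group was set against a pair with both, and the values (-0.20 to 1.33, with -0.03 without control 1 and -0.20 without invasive 2) hold the group difference and say nothing of how stable the pair difference is. The number of members higher in both pairs was 6 in every alternative run, namely prior counts of 0.5 and 5 and library totals without TMM. A changed prior count cannot turn the sign of a difference within a pair, so those alternatives could not alter the number. The log2 difference of at least 1 in both pairs depended on the prior count for PSG2 and PSG3. With a prior count of 5, it was 0.90 and 0.98 for PSG2 and 0.93 and 0.74 for PSG3. PSG4 and PSG5 stayed above 1. Of 71 alternatives for single members within a pair, 55 left the value unchanged or moved it by less than its spread. None turned its sign, which the alternatives with a changed prior count could not do. The other 16 were counted as larger moves. The spread was the SD of a member's values in pair 1 and pair 2, so it was small where the pairs were close. The larger moves fell on PSG2, PSG3 and PSG5, whose pairs were close. They also include PSG8 in pair 1 with the authors' normalized values, which stayed at 0 and did not move. Low counts limit every member except PSG4, with 16 to 40 per library for PSG1 and 0 to 22 for the others. The cause of the other changes was not tested.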
